A study of Rattus norvegicus with 9 samples.

Results

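Liver RNA of 3 male Wistar rats taken 24 h after 6.5 Gy total-body irradiation (TBI) from a cobalt-60 source was compared with that of 3 rats labelled as unirradiated controls of the same time point. Of the 9 arrays of the series, 1 per rat, these 6 entered the comparison. The other 3 rats received Hong Shan Capsule (HSC), a herbal preparation, by mouth before the same dose, and they served here only to estimate the spread between rats. Of the 41012 probes on the array, 25269 were tested, namely those that the scanner software marked well above background in each of the 3 rats of the control group, of the TBI group or of both. No probe was chosen by its difference. All were male rats, no transgene or mutation is named in the labels, and the age of the animals and the hour of sampling are not given in the sources used here.

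Ionizing radiation breaks DNA, and the protein p53 answers by switching on genes that halt the cell cycle or trigger cell death. The liver consists mainly of hepatocytes, which rarely divide, beside Kupffer cells (the resident macrophages), sinusoidal endothelial cells, stellate cells, bile duct cells and circulating blood cells, among which lymphocytes are known to be highly radiosensitive. Hepatocytes make plasma proteins and bile, store and release glucose, build lipids and detoxify foreign compounds, and many of these functions follow a daily rhythm set by the circadian clock.

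Each array was read in 1 colour, so a value is the log2 of the fluorescence intensity of a probe after quantile normalization. Differences are given as TBI minus control on this log2 scale, and levels of different probes are not compared with each other. A probe was called when limma gave a Benjamini-Hochberg adjusted p under 0.05 and the change was at least 1.5-fold, and unless stated otherwise adjusted p values below are from that fit. The correlation between arrays over the tested probes was 0.986 to 0.988 among control rats, 0.973 to 0.984 among TBI rats and 0.963 to 0.97 between the groups. The TBI arrays had more probes above background (63.6 to 69.5%) than the control arrays (56.6 to 59.3%) and a lower signal on the negative control spots (at most 23.9 against at least 27.2 intensity units). All control rats shared 1 slide and all TBI rats a different one, so that slide and irradiation cannot be told apart. Nothing in the labels says that the rats of a group were handled apart from each other, and p values measure the spread between these rats.

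The tissue label was checked first with 12 hepatocyte markers, all of which were above background on the 6 arrays. None was called, and their median difference was 0.01. Albumin, the most abundant plasma protein, had log2 intensities of 17.79, 17.88 and 17.83 in control rats 1, 2 and 3 and of 17.58, 17.57 and 17.85 in TBI rats 1, 2 and 3. Transferrin (Tf), the iron carrier of plasma, differed by 0.04, and Hnf4a, a transcription factor that defines hepatocytes, by -0.01. Over the 12 markers the differences ran from -0.53 to 0.52. In whole tissue, fewer cells of a type and less RNA per cell cannot be told apart, which applies to every marker below.

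A total of 1836 probes (7.27% of those tested) were called, 899 of them higher and 937 lower in TBI rats. One probe per gene, the brightest, was taken for the 9591 genes with a name, of which 374 (3.9%) were called higher and 384 (4.0%) lower. These shares are the background for every gene list below. The groups did not overlap in 7296 (28.9%) of the tested probes, which is the background for statements on overlap below. The count of probes was 1170 without control rat 2 and 931 without control rat 3. Without TBI rat 3, whose array had the most probes above background, 1460 probes were called higher, and without TBI rat 2 590 were called lower. All 6 arrays had signal above background for 567 of the higher and 801 of the lower probes. No control array did for 236 of the higher probes, and no TBI array for 48 of the lower probes.

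Outside the tables of pathway genes of the study, Cdkn1a showed the largest rise of the genes that were measured in all 6 rats without overlap of the groups. Cdkn1a, which encodes the cell cycle inhibitor p21, had log2 intensities of 7.98, 8.22 and 8.81 in the control rats and of 13.44, 13.64 and 14.04 in the TBI rats. The difference was 5.37 (standard error 0.25, adjusted p = 3.4e-05), or 41.3-fold. The secreted stress hormone Gdf15, the clock gene Bmal1 and the drug exporter Abcb1b were also among the 12 largest rises, at 4.26, 2.95 and 2.56. The largest fall was that of Upp2, a uridine phosphorylase of pyrimidine breakdown, from 10.45, 11.17 and 10.10 to 4.96, 7.46 and 6.94. The TBI rats were all below the controls but spread over more than 2 log2 units, and the call of Upp2 (adjusted p = 0.0213) was lost without any 1 of the control rats. The other large falls were mainly genes of mitosis (Cdk1, Kif20a, Ube2c, Ccnb1) and interferon-stimulated genes (Rsad2, Mx2, Isg15, Oasl). The IgM receptor gene Fcmr, the chemokine Ccl12 and the citrate transporter Slc13a2 were also among them.

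**Figure D1:**
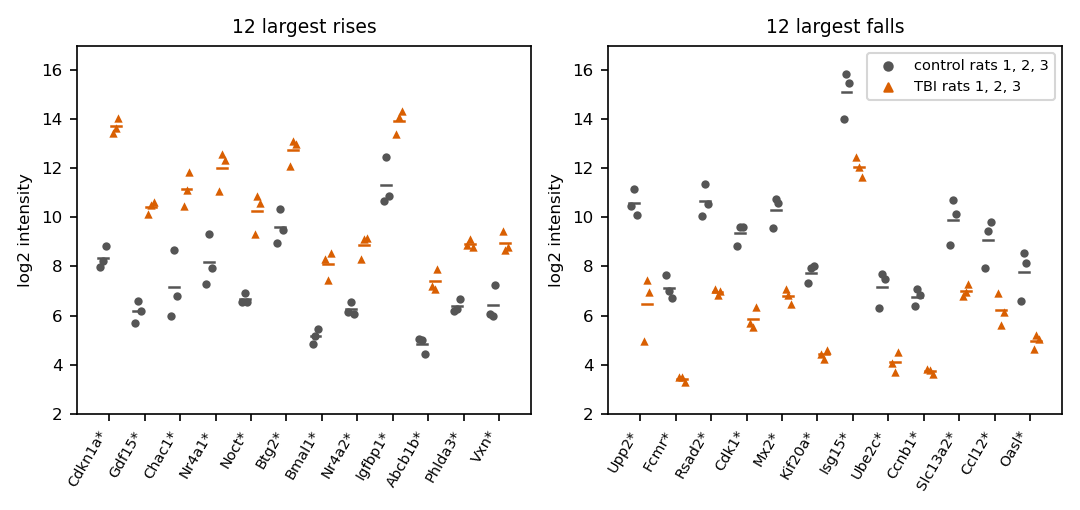
Log2 intensity of the 12 genes with the largest rises (left) and the 12 with the largest falls (right) among called genes above background on all 6 arrays, with circles for control rats 1, 2 and 3, triangles for TBI rats 1, 2 and 3 and a bar for each mean. An asterisk marks a called gene. The groups do not overlap in any of them, which was a condition of the choice.

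The members of the gene lists are shown in the plot of 22 lists by their differences. Interferon-stimulated genes (18 called of 24 tested), mitosis genes (15 of 21) and clock genes (9 of 14) held the largest shares of called members among the lists, whereas the lists of proteasome, respiratory chain, urea cycle and apolipoprotein genes had none.

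**Figure D2:**
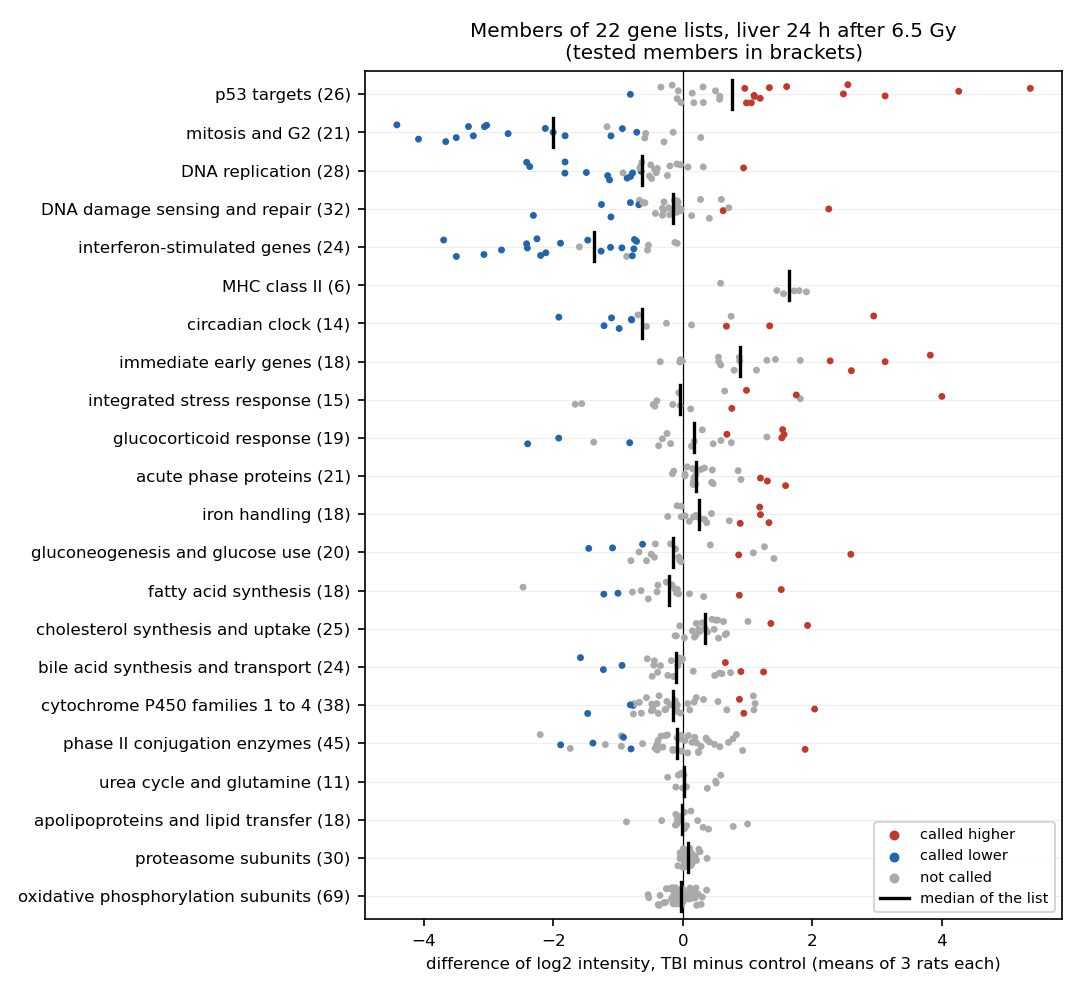
Difference of log2 intensity between the means of 3 TBI and 3 control rats for each tested member of 22 gene lists, with called members in red (higher) or blue (lower), others in grey and the median of each list as a black bar. Mitosis and G2 genes lie left of 0 with a median of -2.0, and the 69 respiratory chain genes lie between -0.54 and 0.37.

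Of 26 tested p53 targets, 13 were called higher and 1 lower, with a median difference of 0.77 against 0.006 over all named genes. Beside Cdkn1a, the count includes Gdf15, the antiproliferative gene Btg2, the Akt inhibitor Phlda3 and cyclin G1 (Ccng1). Gdf15 had 5.70, 6.6 and 6.19 in control rats and 10.15, 10.52 and 10.62 in TBI rats (adjusted p = 0.000205). Ccng1 had 8.58, 9.09 and 8.60 in control rats and 11.28, 11.42 and 11.02 in TBI rats, a difference of 2.48 (standard error 0.18, adjusted p = 0.000312). In each of these 5 genes the lowest TBI rat lay above the highest control rat by more than 1 log2 unit. The proapoptotic Bax rose by 1.2 (adjusted p = 0.00182) and the death receptor Fas by 1.11 (adjusted p = 0.0144). Mdm2, the ligase that degrades p53, rose by 0.96 and was called too. The repair gene Xpc fell by 0.81 (adjusted p = 0.0299), a call lost in 6 of the 9 fits that left out 1 rat. Other known targets were not called, such as Perp at -0.16 and Bbc3 at 0.17, the latter encoding the killer protein PUMA. The count of 13 was 11 to 14 with each rat left out and 11 after normexp background correction.

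Of 32 tested genes of DNA damage sensing and repair, 2 were called higher and 5 lower. Mgmt, the enzyme that removes alkyl groups from guanine, rose from 11.57, 12.01 and 11.79 in control rats to 14.05, 14.19 and 13.89 in TBI rats, a difference of 2.26 (standard error 0.15, adjusted p = 0.000205). Rad54l, a motor protein of homologous recombination, fell by 1.11 (adjusted p = 0.0148), the checkpoint kinase Chek2 by 1.26 (adjusted p = 0.0204) and the break sensor Rad50 by 0.68 (adjusted p = 0.0144). The groups did not overlap in any of these genes, as was so for 28.9% of all tested probes. Prkdc, a kinase of end joining, was called higher at 0.62 (adjusted p = 0.023), a call lost in 5 of the 9 fits with 1 rat left out. The 5 lower calls became 3 without control rat 3 and 2 after normexp correction.

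Genes of mitosis and G2 fell: 15 of 21 tested members were called lower and none higher, and the median difference was -2.0. The kinase Cdk1, which drives entry into mitosis, had 8.84, 9.59 and 9.61 in control rats and 5.71, 5.51 and 6.33 in TBI rats, a difference of -3.50 (standard error 0.37, adjusted p = 0.00178), or 11.3-fold lower. Its cyclin partner Ccna2 had 6.11, 7.01 and 7.04 in control rats and was not well above background on any TBI array, so it was at least 14.7-fold lower (adjusted p = 0.0044). Cyclin Ccnb2 was measured on 1 TBI array and fell by 3.66 (adjusted p = 0.000409). Kif20a, a motor protein of the dividing cell, fell from 7.31, 7.92 and 8.0 to 4.44, 4.25 and 4.61 (adjusted p = 0.000676). Control rat 1 was the lowest control in each of these 4 genes, and the TBI rats lay more than 2 log2 units below it. Aurka and Cdc20, also of mitosis, were not called at -0.29 and -0.59. The count of 15 was 11 to 17 with each rat left out, 11 after normexp correction and 10 over probes above background on all 6 arrays.

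Genes of DNA replication followed with smaller differences, 12 of 28 tested members being called lower and 1 higher, with a median of -0.64. E2f1, a transcription factor of S phase genes, had 6.84, 6.87 and 7.07 in control rats and 4.25, 4.58 and 4.86 in TBI rats, a difference of -2.36 (adjusted p = 0.000369). Cdc45, a part of the replicative helicase, fell by 1.82 (adjusted p = 0.000369), with control rats at 8.30 to 8.42 and TBI rats at 6.42 to 6.66. The exception was Tyms, the thymidylate synthase, which rose by 0.94 (adjusted p = 0.00391). After normexp correction the count of 12 was 4. Of 25 tested histone genes 3 were called lower and 2 higher, and the lower calls became 5 without TBI rat 1. The linker histone H1f5 fell by 2.23 (adjusted p = 0.00219), and H1f1, above background on no TBI array, was at least 7.22-fold lower (adjusted p = 0.00135). The core histone gene Hist1h2bq rose by 0.77 (adjusted p = 0.0131), a call that held with any rat left out, and Hist1h2bg by 0.61 (adjusted p = 0.0238), a call lost in 4 of the 9 fits.

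Promoters of mitotic genes often carry the cell cycle homology region TTTGAA near CCAAT boxes. In the RefSeq promoter windows (assembly GRCr8, 250 bases before to 50 after the start of the gene) TTTGAA was found on either strand in 9 of the 12 called mitosis genes with a window, in 3 of the 4 members not called and in 18.3% of all 33469 windows. CCAAT was found in 10 of those 12, in 3 of those 4 and in 37.5% of all windows. The windows of Cdk1 (chr20:19265043-19265342, plus strand) and Ccnb2 (chr8:79981609-79981908, minus strand) are printed 5′ to 3′ because they hold both motifs. Capitals mark both motifs and their reverse complements.
Cdk1: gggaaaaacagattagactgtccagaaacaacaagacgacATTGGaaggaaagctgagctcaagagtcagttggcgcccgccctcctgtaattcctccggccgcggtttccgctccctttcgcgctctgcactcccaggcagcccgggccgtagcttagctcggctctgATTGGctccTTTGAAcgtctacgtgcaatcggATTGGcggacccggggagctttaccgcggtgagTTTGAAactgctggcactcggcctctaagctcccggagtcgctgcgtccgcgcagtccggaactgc
Ccnb2: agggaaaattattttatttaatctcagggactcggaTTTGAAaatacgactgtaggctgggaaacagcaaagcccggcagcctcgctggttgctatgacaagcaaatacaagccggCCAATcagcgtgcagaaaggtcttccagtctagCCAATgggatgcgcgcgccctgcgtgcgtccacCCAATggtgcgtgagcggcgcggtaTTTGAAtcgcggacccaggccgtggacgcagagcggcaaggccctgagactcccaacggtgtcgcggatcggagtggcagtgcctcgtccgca
Among the replication genes TTTGAA was found in 2 of the 10 called lower with a window. A match describes the letters and is not a measured binding site.

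Interferon-stimulated genes, which are switched on by interferons in antiviral defence, fell in most members of the list. Of 24 tested genes 18 were called lower and none higher, all 24 differences were negative, and the median was -1.37. Rsad2, an antiviral enzyme, had 10.07, 11.35 and 10.55 in control rats and 7.06, 6.82 and 7.01 in TBI rats, a difference of -3.70 (standard error 0.45, adjusted p = 0.00313). Isg15, a ubiquitin-like protein, had 14, 15.84 and 15.49 in control rats and 12.45, 12.05 and 11.62 in TBI rats (difference -3.07, adjusted p = 0.00943). Mx2, an antiviral GTPase, had 9.56, 10.76 and 10.57 in control rats and 7.10, 6.82 and 6.48 in TBI rats (difference -3.50, adjusted p = 0.00189). The groups did not overlap, and control rat 1 was the lowest control in all 3 genes. Transcription factors of the pathway fell as well, Irf7 by 2.25, Stat2 by 0.94 and Irf9 by 0.75, all called. Ifi27, Gbp2, Bst2, Isg20, Ifitm3 and the chemokine Cxcl10 were not called, with differences from -1.60 (Cxcl10) to -0.09 (Isg20). The intensity summed over the 24 genes was 121177 to 262238 in the control rats and 78014 to 92402 in the TBI rats. The count of 18 became 11 without control rat 2 and 11 without control rat 3, and stayed between 13 and 19 without any other rat.

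The interferon-stimulated response element, searched on either strand as GAAA followed by any 2 bases and again GAAA, was found in 7 of the 11 called members with a RefSeq promoter window, in all 6 members not called, and in 3.9% of all windows. Members that fell and members that were not called thus both held it. The windows of Rsad2 (chr6:48788071-48788370, minus strand), Irf7 (chr1:205799974-205800273, minus strand) and Oas1a (chr12:41330216-41330515, plus strand; assembly GRCr8) are printed 5′ to 3′ because each holds the motif before the start, in capitals. In Oas1a, where 2 matches overlap, they begin 41 and 35 bases before the start, given as -41 and -35. Oas1a, an RNA-sensing synthetase, fell by 2.12 and was called.
Rsad2: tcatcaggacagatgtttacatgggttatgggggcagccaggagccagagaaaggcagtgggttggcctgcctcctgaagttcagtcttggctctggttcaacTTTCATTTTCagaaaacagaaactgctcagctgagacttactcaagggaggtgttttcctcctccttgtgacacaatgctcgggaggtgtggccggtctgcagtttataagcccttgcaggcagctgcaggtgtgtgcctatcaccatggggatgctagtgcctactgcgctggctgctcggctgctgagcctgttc
Irf7: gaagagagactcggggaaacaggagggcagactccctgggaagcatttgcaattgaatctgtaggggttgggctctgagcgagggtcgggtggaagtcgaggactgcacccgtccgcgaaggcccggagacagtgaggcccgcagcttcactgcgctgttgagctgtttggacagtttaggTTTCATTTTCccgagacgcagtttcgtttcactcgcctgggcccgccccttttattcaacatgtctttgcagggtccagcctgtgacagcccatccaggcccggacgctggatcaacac
Oas1a: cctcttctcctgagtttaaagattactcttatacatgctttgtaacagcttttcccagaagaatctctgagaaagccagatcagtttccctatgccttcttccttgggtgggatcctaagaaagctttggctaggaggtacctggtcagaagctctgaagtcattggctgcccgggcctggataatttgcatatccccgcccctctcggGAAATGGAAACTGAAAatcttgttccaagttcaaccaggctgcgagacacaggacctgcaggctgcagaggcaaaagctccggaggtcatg

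**Figure D3:**
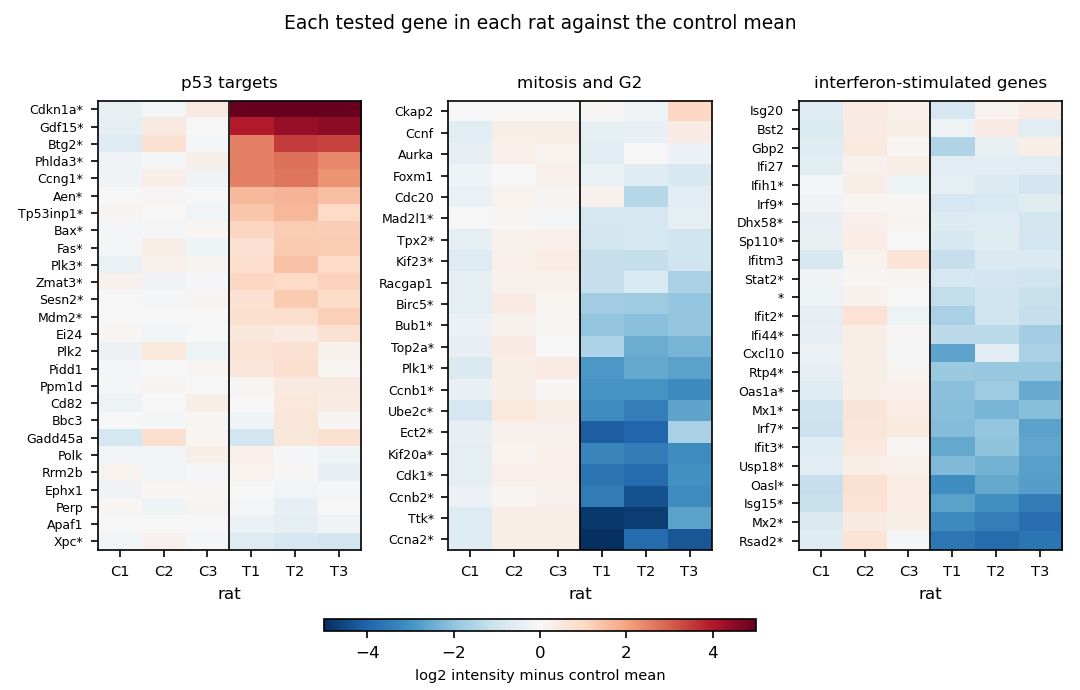
Log2 intensity of every tested p53 target (left), mitosis and G2 gene (middle) and interferon-stimulated gene (right) in control rats C1 to C3 and TBI rats T1 to T3, minus the mean of the control rats, with rows ordered by the difference asterisks on called genes and 1 row left unnamed. The scale ends at 5 in either direction, so that Cdkn1a is drawn at its end, and signals not above background are drawn at their measured level. The called rows keep 1 colour over the 3 TBI rats.

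Genes of MHC class II, which present peptides on macrophages, dendritic cells and B cells, differed among the TBI rats themselves. Cd74, the chaperone of MHC class II, had 11.82, 12.41 and 12.57 in control rats and 10.83, 15.27 and 15.37 in TBI rats. RT1-Da, an MHC class II chain, had 10.38, 10.76 and 10.60 in control rats and 9.33, 13.80 and 14 in TBI rats. TBI rat 1 thus lay below the controls for both genes and TBI rats 2 and 3 lay above them. Among 6 tested members none was called, although the median difference was 1.64 (Cd74 adjusted p = 0.383). With TBI rat 1 left out, 9 members passed the filter and 7 of them were called higher, Cd74 with a difference of 3.05 (adjusted p = 0.00099) and RT1-Da with 3.32 (adjusted p = 0.000114). Ciita, RT1-DOa and RT1-DOb passed only through TBI rats 2 and 3, and RT1-DOa was among those called. In that fit 737 named genes were called. The rat left out was the one seen below the controls, so these calls add no separate support. Beside this, the median difference of 21 tested Kupffer cell and macrophage markers was 0.46, with none called, and 5 of them were called higher without TBI rat 1. The part of these cells in the MHC class II values was not tested. Clec4f, which marks rat Kupffer cells, had 15.25, 15.73 and 15.43 in control rats and 15.14, 16.04 and 15.55 in TBI rats. MHC class I genes were not called in 10 tested members, with B2m, which encodes beta-2 microglobulin, at 0.15. Of the 20 tested members of the chemokine list, which leaves out Ccl12 named above, Cxcl2 was called higher (1.99, adjusted p = 0.0213) and Cxcl13 lower (-1.43, adjusted p = 0.0335), and of 14 tested inflammatory cytokine genes Il1a alone was called, at 0.91 (adjusted p = 0.0356). Each of these 3 calls was lost in at least 3 of the 9 fits with 1 rat left out.

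The circadian clock genes moved in opposite directions. The clock is a loop in which Bmal1 with Clock or Npas2 switches on the Per and Cry repressors and the Rev-erb receptors, and in liver it drives the output factors Dbp and Tef. Of 14 tested genes, 3 of the activating arm were called higher and 6 repressors or output factors lower. Bmal1 had 4.85, 5.15 and 5.47 in control rats and 8.31, 7.46 and 8.55 in TBI rats, a difference of 2.95 (standard error 0.28, adjusted p = 0.00113), or 7.73-fold. Dbp had 13.32, 13.32 and 13.33 in control rats and 11.13, 11.87 and 11.22 in TBI rats, a difference of -1.92 (standard error 0.20, adjusted p = 0.00193). Cry2 fell by 1.22 (adjusted p = 0.00359), Tef by 0.98 (adjusted p = 0.0137) and Nr1d1, the receptor Rev-erb alpha, by 0.80 (adjusted p = 0.0182). Per2 was called at -0.79, and Per3 at -1.10 (adjusted p = 0.0339). Per1 and Bhlhe40 were not called, with 0.13 and -0.25. The calls of Bmal1, Dbp, Cry2 and Tef held in all 9 fits with 1 rat left out, whereas that of Nr1d1 was lost without control rat 1 or control rat 3 and those of Npas2 (1.34), Clock (0.67) and Per3 in at least 6 of these fits. The 3 higher calls became 1 or 2 with each rat left out, and the 6 lower calls became 3 without control rat 3. Noct, a rhythmic gene that was not in the list, rose from 6.56, 6.91 and 6.56 to 9.32, 10.88 and 10.59 (difference 3.59, adjusted p = 0.0128).

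**Figure D4:**
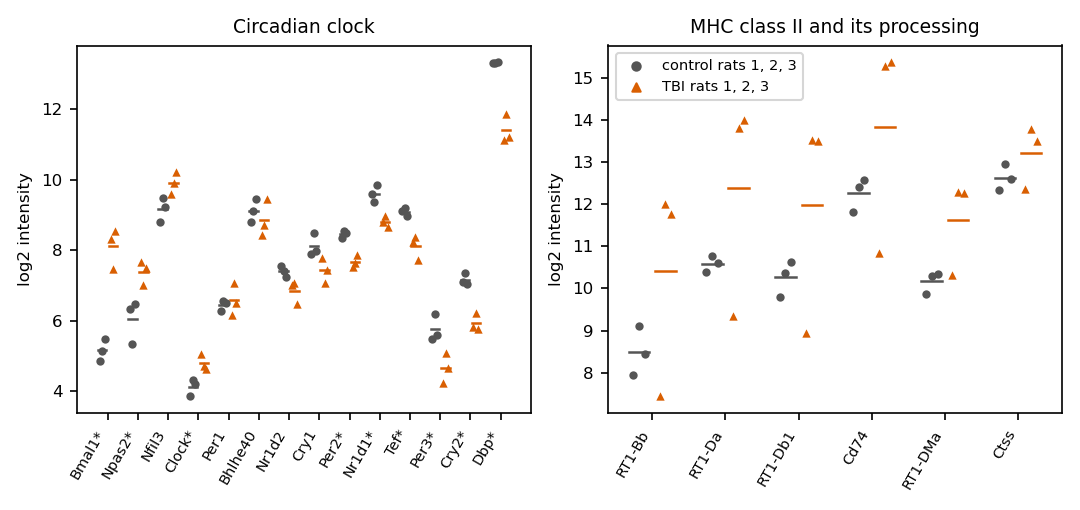
Log2 intensity of 14 circadian clock genes (left) and 6 genes of MHC class II presentation (right) in single rats, with circles for control rats 1, 2 and 3, triangles for TBI rats 1, 2 and 3, bars for means and asterisks for called genes. On the left the groups separate in opposite directions for Bmal1 and Dbp. On the right TBI rat 1 lies below the controls for Cd74 and RT1-Da while TBI rats 2 and 3 lie above them. For Ctss TBI rat 1 lies within the range of the controls.

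Immediate early genes, which respond within minutes to signals, were higher in 4 of 18 tested members, with a median difference of 0.88, or 0.83 with members dim in a group set at their bounds. The count of 4 became 2 without control rat 3 and 6 without TBI rat 1. The nuclear receptor Nr4a2 had 6.14, 6.54 and 6.08 in control rats and 8.30, 9.13 and 9.14 in TBI rats (difference 2.60, adjusted p = 0.00604). Nr4a1 rose by 3.82 (adjusted p = 0.0133), a call lost without control rat 3, and Jun by 2.28 (adjusted p = 0.0432), a call lost in 7 of the 9 fits with 1 rat left out. Control rat 2 was the highest control for these 3 genes, with 9.30 for Nr4a1 against 7.30 and 7.92 in the other controls. The integrated stress response had 4 higher calls among 15 tested genes and a median of -0.04. Its largest change was in Chac1, an enzyme that degrades glutathione, which had 6.0, 8.66 and 6.79 in control rats and 10.48, 11.10 and 11.87 in TBI rats (difference 4.0, adjusted p = 0.0193). The call of Chac1 was lost without control rat 1, control rat 3 or TBI rat 2, and the count of the list fell from 4 to 1 without control rat 1 or control rat 3. The chaperones of the endoplasmic reticulum were not called in 17 tested members (Hspa5, the master chaperone, at 0.06).

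Genes that respond to glucocorticoids, the adrenal stress hormones, were mixed: 4 of 19 tested were called higher and 3 lower. Gadd45b had 9.91, 9.83 and 9.56 in control rats and 11.31, 11.56 and 11.06 in TBI rats (difference 1.54, adjusted p = 0.00266), and the kinase Sgk1 rose by 1.56 (adjusted p = 0.0129). Zbtb16, a transcriptional repressor, fell from 6.69, 7.32 and 7.06 to 4.86, 5.22 and 3.80 (difference -2.40, adjusted p = 0.00734). These 3 calls held with any 1 rat left out. Tat, the tyrosine aminotransferase, was called higher (1.53, adjusted p = 0.0286) and Fkbp5, a chaperone of the receptor, lower (-0.82, adjusted p = 0.0445), and both calls were lost in at least 4 of the 9 fits. The metal binder Mt2A was called lower at -1.92 (adjusted p = 0.0423), lost in 6 of the 9 fits. The 4 higher calls of the list became 2 without control rat 1, control rat 3 or TBI rat 2, and the 3 lower calls became 1 without any 1 of the control rats, TBI rat 3 or HSC + TBI rat 2. Serpina6, the plasma carrier of glucocorticoids, fell by 1.17 (adjusted p = 0.0238) and was the only called one among 18 tested hepatocyte plasma proteins, a call lost without control rat 2 or control rat 3.

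Acute phase proteins, which hepatocytes release in inflammation, had 3 higher calls among 21 tested, and 19 of the 21 differences were positive. Orm1 had 14.47, 15.34 and 15.17 in control rats and 16.56, 16.93 and 16.26 in TBI rats (difference 1.59, adjusted p = 0.019). The lipopolysaccharide binder Lbp rose by 1.31 (adjusted p = 0.0274) and the iron hormone hepcidin (Hamp) by 1.2 (adjusted p = 0.0487). No member of the list was called without control rat 1 or without TBI rat 2. In the list of iron handling 4 of 18 tested were called higher and none lower. Tfrc, the transferrin receptor that brings iron into cells, rose from 9.83, 9.88 and 10.02 to 11, 11.15 and 11.15 (difference 1.19, standard error 0.11, adjusted p = 0.000869), a call that held with any rat left out. The iron list fell from 4 calls to 1 without control rat 1, control rat 2 or TBI rat 2. Among 26 tested genes of complement and coagulation, kininogen (Kng1) was called higher (1.75, adjusted p = 0.0204) and plasma prekallikrein (Klkb1), with which it circulates, lower (-1.37, adjusted p = 0.0261), each lost in at least 3 of the 9 fits.

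Genes of glucose metabolism moved in both directions, with 2 of 20 tested called higher and 3 lower. G6pc1, the catalytic subunit that releases free glucose, rose from 15.24, 15.13 and 14.92 to 15.87, 15.80 and 16.21 (difference 0.86, adjusted p = 0.0104). Slc37a4, the transporter that feeds it with glucose 6-phosphate, fell from 15.00, 14.81 and 14.86 to 14.04, 13.70 and 13.67 (difference -1.09, adjusted p = 0.00301). Ugp2, which makes the precursor of glycogen, fell by 1.45 (adjusted p = 0.00456). The other 2 probes of Ugp2 fell by 1.36 and 1.53. These 3 calls held with any rat left out. The insulin-like growth factor binder Igfbp1 rose by 2.60 (adjusted p = 0.019), a call lost without control rat 1, control rat 3 or TBI rat 2, with 12.46 in control rat 2 against 10.65 and 10.89 in the other controls. In the growth hormone axis Igfals, the stabilizer of circulating IGF, was called lower at -1.07 (adjusted p = 0.0391) and the male-specific P450 Cyp2c11 at -1.47 (adjusted p = 0.0452), and neither call held in more than 2 of the 9 fits.

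Lipid genes moved in both directions. Of 18 tested genes of fatty acid synthesis Gpam, the first enzyme of triglyceride assembly, rose from 6.75, 6.53 and 6.95 to 8.30, 8.38 and 8.12 (difference 1.52, adjusted p = 0.000838), and Mid1ip1 by 0.87 (adjusted p = 0.017). The pyruvate kinase Pklr (-1.22, adjusted p = 0.0158) and the desaturase Fads2 (-1.0, adjusted p = 0.0406) were called lower. Of these 4 calls, that of Gpam held with any rat left out. Of 25 tested genes of cholesterol synthesis and uptake 2 were called higher, and 22 of the 25 differences were positive, with a median of 0.35. Insig1, a sterol sensor, had 13.07, 13.52 and 13.08 in control rats and 14.37, 15.26 and 15.82 in TBI rats (difference 1.93, adjusted p = 0.0106), and its other 3 probes differed by 2.13 to 2.17. Without TBI rat 1, 7 members were called higher, Insig1 among them with a difference of 2.32 (adjusted p = 0.00197). Fatty acid oxidation had 3 calls in 31 tested: the kinase Pdk4 (2.04, adjusted p = 0.0412) and Cyp4a2 (2.04, adjusted p = 0.0385) higher and Cpt1a, the gate of mitochondrial import, lower (-0.79, adjusted p = 0.0248), each lost in at least 3 of the 9 fits. Apolipoproteins and lipid transfer genes were not called in 18 tested.

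Among 24 tested genes of bile acid synthesis and transport 3 were called in each direction. Abcc2, which exports conjugated bilirubin into bile, fell from 14.37, 14.17 and 14.28 to 13.37, 13.26 and 13.37 (difference -0.94, standard error 0.12, adjusted p = 0.00388). The sterol exporter subunit Abcg8 fell by 1.23 (adjusted p = 0.00235). The bile acid receptor Nr1h4 (FXR) was called higher at 0.66 (adjusted p = 0.0187) and its target Nr0b2 (SHP) lower at -1.58 (adjusted p = 0.0438). The phospholipid exporter Abcb4 (0.90) and Cyp7b1 (1.25) were called higher as well. The falls of Abcc2 and Abcg8 held with any rat left out, but the call of Abcg8 was lost after normexp correction. None of the 3 higher calls was left without control rat 3, and the call of Nr0b2 was lost in 7 of the 9 fits.

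Of 38 tested cytochrome P450 genes of families 1 to 4, which oxidize drugs and steroids, 3 were called higher and 3 lower. Cyp3a23-3a1 had 12.54, 12.60 and 11.96 in control rats and 13.29, 13.16 and 13.49 in TBI rats (difference 0.94, adjusted p = 0.0184). It was the only P450 call that held with any rat left out, but it was lost with only the control and TBI arrays in the fit. Of 45 tested conjugation enzymes 1 was called higher and 4 lower. The lower calls became 1 without any 1 of the control rats, 2 without TBI rat 1 and 6 without TBI rat 3, and the 1 higher call became 0 without TBI rat 1 or 2, 2 without TBI rat 3 or HSC + TBI rat 3 and 3 without control rat 2. Nat8, an acetyltransferase of the endoplasmic reticulum, fell from 13.11, 13.37 and 12.68 to 11.31, 11.18 and 11.01 (difference -1.89, adjusted p = 0.00196). The antioxidant master regulator Nfe2l2 rose by 1.12 (adjusted p = 0.00305), while of the other tested Nrf2 target genes Akr7a3 alone was called, lower at -1.47 (adjusted p = 0.0468, lost in 7 of the 9 fits). Of 12 tested amino acid transporters 1 was called higher and 2 lower. Slc38a2 rose by 1.63 (adjusted p = 0.0141), a call lost without control rat 3. Slc7a1 was called lower at -0.99 (adjusted p = 0.0434) and Slc38a4 at -0.60 (adjusted p = 0.0467), and each of these 2 calls was lost in at least 6 of the 9 fits.

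The basic machinery of the cell showed small differences. No member was called among 30 tested proteasome subunits, 62 mitochondrial ribosomal proteins, 69 respiratory chain subunits, 17 genes of ribosome biogenesis, 11 of the urea cycle and glutamine, and 13 pericentral and 11 periportal hepatocyte genes. Without TBI rat 3, 2 pericentral genes were called higher. Unadjusted p values under 0.05 were met by 2, 8, 5, 4, 1, 1 and 1 members of these lists in the order given. Over all 25269 tested probes 6440 met them. Of 75 tested cytosolic ribosomal proteins Rps19 was called, at 0.60 (adjusted p = 0.00894), and 65 of the 75 differences were positive with a median of 0.17. Of 15 tested heat shock genes Bag3, a co-chaperone, was called lower at -0.59 (adjusted p = 0.0271), a call lost in 5 of the 9 fits and with the normalized values of the authors. Of the 15 differences 12 were positive, with a median of 0.23, and the summed intensity of the list was 115039 to 117460 in control rats and 142959 to 153360 in TBI rats.

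Some markers of T and B lymphocytes fell in the irradiated livers. Of 16 tested T cell markers 5 were called lower and none higher, and 7 of the 16 differences were positive. Cd3g, a chain of the T cell receptor complex, had 7.04, 7.28 and 7.06 in control rats and 2.81, 4.10 and 3.65 in TBI rats, where it was above background on 2 arrays (difference -3.60, standard error 0.31, adjusted p = 0.000674). Cd2, an adhesion receptor, had 5.40, 4.97 and 5.17 in control rats and was above background on no TBI array, hence at least 5.13-fold lower (adjusted p = 0.00121), a call lost after normexp correction. The receptor Cd6 fell by 1.64 (adjusted p = 0.00301). Cd3d, another chain of the receptor complex, had 8.37, 8.92 and 8.69 in control rats and 7.95, 7.27 and 8.41 in TBI rats, an overlap, and was not called at -0.79 (adjusted p = 0.148). Cd4 and Cd8b were not called at 0.71 and 0.78, so that the T cell list was not lower throughout. The count of 5 was 2 after normexp correction and 2 over probes above background on all 6 arrays. The intensity summed over the 16 markers was 1390 to 2109 in control rats and 925 to 1539 in TBI rats, and these ranges overlap. Of the T cell genes listed, 8 were not tested, Cd3e, Cd5 and Cd28 among them.

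Of 10 tested B and plasma cell markers 3 were called lower and 1 higher, with a median of -1.31. Fcmr, the receptor for IgM, had 7.66, 7.01 and 6.72 in control rats and 3.49, 3.48 and 3.29 in TBI rats (difference -3.71, standard error 0.24, adjusted p = 0.000175). Pou2af1, a coactivator of antibody genes, fell by 1.82 (adjusted p = 0.00428), while a dimmer probe of the gene differed by 1.10 in the opposite direction. Cd79b, a signalling chain of the B cell receptor, was above background on no TBI array and at least 4.97-fold lower (adjusted p = 0.00313), a call lost after normexp correction. Vpreb3 was called higher with 6.13, 6.44 and 6.35 against 7.67, 7.73 and 7.15 (difference 1.21, adjusted p = 0.0286), lost in 5 of the 9 fits. Cd22, an inhibitory receptor of B cells, had 7.03, 7.06 and 7.13 in control rats and 7.23, 7.69 and 7.93 in TBI rats, without overlap, and was not called at 0.55 (adjusted p = 0.0887). The defining genes Ms4a1 and Cd79a were not among those tested. The summed intensity of the list was 674 to 849 in control rats and 478 to 632 in TBI rats. The lymphocyte markers that fell stand beside the lower mitosis and interferon-stimulated genes in the same rats, and their part in those results was not tested.

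**Figure D5:**
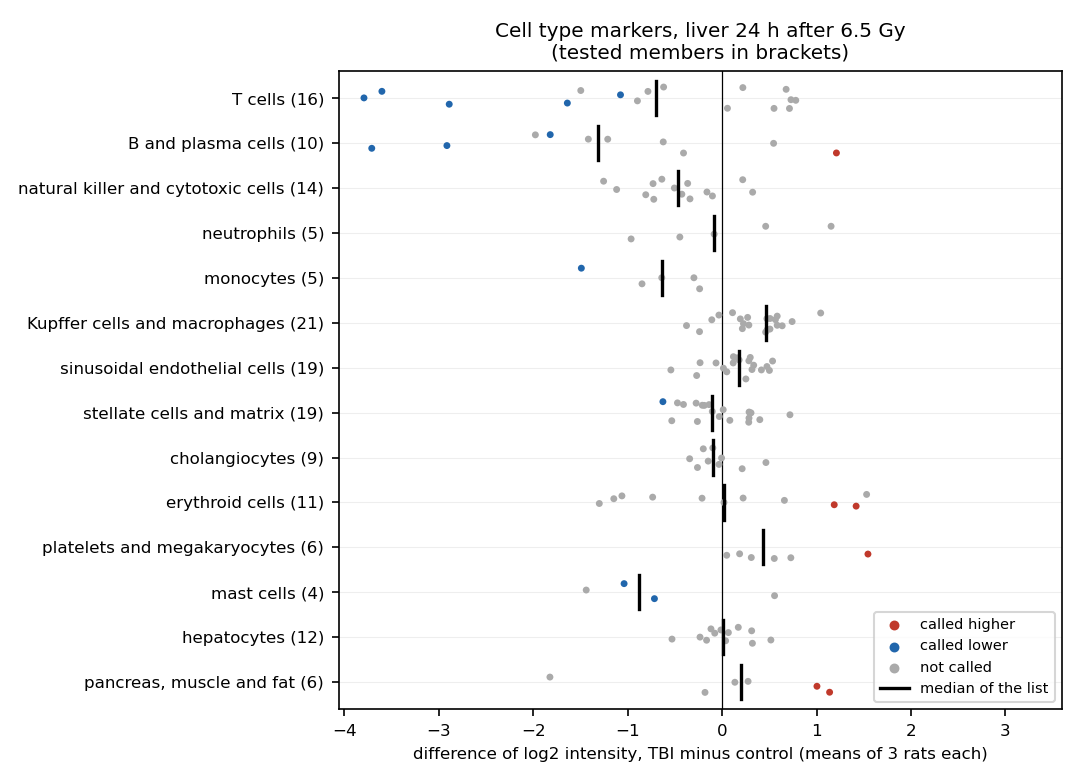
Difference of log2 intensity between the means of 3 TBI and 3 control rats for each tested marker of 14 cell types or other tissues, with called markers in red (higher) or blue (lower), others in grey and medians as black bars. T and B cell markers reach below -3, whereas the 12 hepatocyte markers lie within about 0.5 of 0.

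Markers of other leukocytes held 3 calls, all of them lower. None of 14 tested markers of natural killer and cytotoxic cells was called, although 12 differences were negative and the median was -0.47. The granule protease Gzma had 9.66, 10.94 and 10.45 in control rats and 9.02, 10.61 and 10.15 in TBI rats, which overlap, and rat 1 was the lowest of its group in both. Of 5 tested neutrophil markers none was called (S100a8 at -0.08, S100a9 at 0.46), and 9 of the neutrophil genes on the array did not pass the background rule. Fcnb, a lectin of monocytes, was the 1 call among 5 monocyte markers, from 8.62, 8.85 and 8.52 to 6.87, 7.27 and 7.36 (difference -1.49, adjusted p = 0.00551). Of 4 tested mast cell markers Tpsab1 (-1.04, adjusted p = 0.0399) and Cpa3 (-0.72, adjusted p = 0.0366) were called lower, and none was left without any 1 of the control rats.

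Among resident cells of the liver other than leukocytes, 1 marker, of stellate cells, was called. None of 19 tested markers of sinusoidal endothelial cells was called, with the growth factor receptor Kdr at 0.33 and Dnase1l3 at 0.01, and none of 9 bile duct markers, with Epcam at -0.34. Of 19 tested markers of stellate cells and matrix, Lrat, the enzyme that stores vitamin A in these cells, was called lower from 11.29, 11.09 and 11.06 to 10.40, 10.48 and 10.68 (difference -0.63, adjusted p = 0.0236), a call lost in 5 of the 9 fits, while the collagens Col1a2 and Col3a1 were not called at -0.47 and -0.28. Without TBI rat 3 the lower calls of this list became 3, Col3a1 among them. At an unadjusted p under 0.05 there were 4 endothelial, 0 bile duct, 2 Kupffer, 2 cytotoxic cell and 2 hepatocyte markers. Of all 25269 tested probes 6440 met this threshold. In the erythroid list Tfrc and Epb42 were called higher, but Tfrc is also expressed by hepatocytes. The call of Epb42 was lost in 8 of the 9 fits with 1 rat left out and after normexp correction. Hbb, the beta globin, had a difference of -1.30 with overlapping groups (adjusted p = 0.122). Markers of pancreas, muscle and fat, tissues that can be carried along in dissection, were largely below background, with 6 of 18 tested. Ctrb1, a pancreatic protease, was called higher at 1.0 (adjusted p = 0.0113) and Cfd at 1.14 (adjusted p = 0.0345). The call of Ctrb1 held with any rat left out, and that of Cfd was lost in 6 of the 9 fits. The summed intensity of this list was 2254 to 3465 in control rats and 4076 to 6121 in TBI rats.

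Some genes in none of these lists were above background in 1 group alone. Foxi2, a transcription factor, had 6.27, 7.26 and 6.78 in control rats and was at least 15.5-fold lower in TBI rats (adjusted p = 0.00219). The mitotic genes Pimreg and Nuf2 were at least 6.21-fold and 6.85-fold lower, and Bard1, the partner of BRCA1, and Fam111a, a protease at replication forks, at least 5.98-fold and 6.61-fold. The calls of Foxi2, Pimreg, Nuf2 and Fam111a were lost after normexp correction and that of Bard1 was not. In the other direction, Myoc was not above background in any control rat and had 4.74, 9.05 and 6.14 in the TBI rats, at least 6.92-fold higher (adjusted p = 0.0193), a call lost without any 1 of the control rats and after normexp correction.

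Rises near background stand beside the larger share of probes above background on the TBI arrays. In the dimmest 20% of tested probes the median difference was 0.063, and in the brighter groups of 20% it was -0.027 to -0.007. A dim probe could pass the filter through 1 group alone, the group where it was bright, so these medians depend on the filter. Olfactory receptors are given as an example. Of 1083 olfactory receptor genes 191 were tested, 30 were called higher and 3 lower, and 64 were above background on no control array. Their median difference was 0.76, or 0.47 with receptors dim in a group set at their bounds, and the 30 higher calls became 5 after normexp correction, 9 over probes above background on all 6 arrays and 79 without TBI rat 3. The part of the larger share of probes above background in these rises was not tested. Of the 937 called lower probes, 801 had signal above background in all 6 rats.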

How the data were processed

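Liver RNA of 9 male rats was hybridised to 1-colour whole rat genome arrays (Agilent), 1 array per rat and 3 rats per group. Per the file headers, Feature Extraction 10.7.3.1 made the processed signal intensity, background-subtracted and detrended within each array, with substitute values for dim spots. The authors also deposited log2 values after quantile normalization over the 9 arrays, used here as an alternative.

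From the processed intensities, control spots and outlier spots were left out, values were floored at 1, taken to log2, quantile normalized over 9 arrays and averaged per probe. Of the 6 arrays compared, 14 tested probes lacked a value on at least 1. limma 3.58.1 in R 4.3.3 fitted 3 group means over the 9 arrays with Benjamini-Hochberg adjustment over 25269 probes. Where a probe was above background on no array of a group, a fold is a bound, the mean of the bright group against the higher of the lowest signal above background and the probe's own signal, array by array. Of 41012 probes 16983 had a name (13451 genes), 15 of them through identifiers that a supplementary list of the study pairs with symbols, and 2215 tested genes had several probes. In 9 called genes another probe had the opposite sign. The code was tested on simulated data.

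Genes were named by a rule: the 12 largest rises and 12 largest falls, up to 5 called members of each of 62 lists in each direction, up to 3 bright markers of each cell type, up to 2 bright members of lists without calls and 6 genes above background in 1 group alone. Other named genes, such as Irf7, Oas1a, Mdm2, Per2 and members given as not called, were chosen after their values were seen. The lists and the comparison were chosen with earlier results of these data known. Genes of the pathway tables of the study, 31 of 32 of which were matched, were left out of the lists. Promoter windows came from RefSeq (assembly GRCr8), and the array design names an older build, so no array coordinates are printed. Some items are not reported here by name. The alternatives were other normalizations, background corrections, filters, samples in the fit, tests and blocks, and each rat left out in turn.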

Additional observations from a re-analysis of the deposited data

How the results depend on the processing

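No result that was recomputed changed its direction while called. The 1836 called probes (899 higher, 937 lower, 758 named genes) became 1179 (597 higher, 582 lower, 491 genes) with quantiles over the 6 control and TBI arrays fitted alone and 1178 (593 higher, 585 lower, 490 genes) with only these arrays in the fit. Normexp background correction gave 665 (278 higher, 387 lower, 330 genes). The methods' t-test after Benjamini-Hochberg adjustment gave 7 (4 higher, 3 lower, 3 genes), against 2113 without adjustment. With the slide as a random block, at an estimated correlation within slides of -0.327, the count was 4492 (2498 higher, 1994 lower, 1693 genes). All control rats shared 1 slide and all TBI rats another. This block therefore does not separate slide from irradiation, and its count is not corrected for slides. Over probes above background on all 6 arrays 588 were called higher. Leaving out 1 rat at a time gave 931 to 2523 called probes, 447 to 1460 higher, 484 to 1063 lower and 391 to 996 named genes, the fewest without control rat 3. With the 75th percentile shift 57.5% of calls were higher, against 49.0%, and the median difference of all tested probes was 0.032. The causes of these shifts were not tested. Rats that share a replicate number are not tied in the labels: deviations from the group means correlated at 0.195, 0.116 and 0.099 within numbers and at -0.122 to 0.019 between them. Each rat correlated best with its own number, which is a hint from the data and not from the design. Because each group was centred on its own mean, the values within and between numbers are not independent of each other. A fit with the replicate block called 1568 probes. Signal over background limits dim genes, whose falls are bounds, and 3 arrays a group limit the precision.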
